A study of Mus musculus with 7 samples.

Results

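Carnitine carries fatty acids into mitochondria, and 7 genes of its uptake and of the acylcarnitine shuttle were followed in mouse duodenum with and without intestinal Ppara. They were taken by symbol as Slc22a5, Slc22a4, Cpt1a, Slc25a20, Cpt2, Crat and Crot, and all 7 were among the 14795 genes of the table and among the 13399 genes that passed a filter on low values and were tested. The comparison was between 3 control libraries of Ppara lox/lox mice, which carry loxP sites in both copies of Ppara and no Cre, and 4 libraries of Ppara I-KO mice, which carry the same loxP sites together with Villin-Cre. The study took up such mice to ask about intestinal fatty acid oxidation when the gut expands. It also used them for villus length, fat absorption, crypt proliferation and lipid droplets, and showed Plin2 and Plin3 from the duodenal sequencing. All mice were males labelled C57BL/6 (predominantly C57BL6/J by the methods), and they had 8 weeks of high fat diet (HFD). Per the labels, food was taken away from 12:00 until 18:00, then returned, and tissue was collected at 00:00, after refeeding. The methods give a fast before collection unless stated otherwise, so the fed state rests on the labels. Their ages were not given in the sources used here. The Villin promoter drives Cre in the intestinal epithelium, while RNA came from whole duodenum, so muscle, vessels and immune cells of the wall kept their Ppara and contribute to every value.

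Long-chain fatty acids cross the inner mitochondrial membrane only as acylcarnitines. Carnitine enters the cell through plasma membrane transporters, CPT1 on the outer mitochondrial membrane exchanges CoA for carnitine, the carrier SLC25A20 moves the acylcarnitine inwards against free carnitine, and CPT2 hands the acyl group back to CoA for beta-oxidation. CRAT and CROT do the same exchange for short chains and for the medium chains that peroxisomes release. PPARα is a nuclear receptor for fatty acids, known in liver as an inducer of many of these genes, and it binds with its partner RXR to a direct repeat of AGGTCA with 1 base between.

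Each gene has 1 value per library, a normalized count (CPM) that the authors scaled to an adjusted library size. The low values show that 20741442 to 25885363 reads per library lay on the listed genes. Ppara itself was at 53.4, 49.3 and 63.2 CPM in the controls, while replicates 1 to 4 of I-KO had 33.1, 40.6, 47.5 and 69.9 CPM. The library labelled I-KO replicate 4 was thus above every control, and the others were below them (log2 fold change -0.25, adjusted p = 0.954 by limma, -0.45 without that library and -0.099 without I-KO replicate 1). The table does not separate the deleted part of the gene from the rest, so this value does not check the deletion, and each result below that rests on the library labelled I-KO replicate 4 was also computed without it. Enterocyte markers were high in all libraries. Of 10 such markers, 8 were higher and 2 lower in mean in I-KO, and 0 had an unadjusted p under 0.05 (limma). Only Vil1 did not overlap, with 2947 to 3383 CPM in I-KO above 2735 to 2884 CPM in lox/lox. That pattern was shown by 2.91% of all tested genes. Fabp2 was lower in mean (log2 fold change -0.26). The 5 markers of the proximal small intestine summed to 343 to 548 CPM in lox/lox and 436 to 589 CPM in I-KO. Lox/lox replicate 3, the lowest in that sum, stood apart with 16.9 CPM of Cybrd1 and 49.3 CPM of Slc40a1, against 56.1 to 78.5 and 103 to 162 CPM in the other 6 libraries. Summed over 10 enterocyte markers, the level spanned 50690 to 60533 CPM in lox/lox and 51502 to 68110 CPM in I-KO. Most of that sum came from Apoa4 (19813.8 to 31199.8 CPM over all libraries) and Apoa1 (13408.5 to 19138.1 CPM). Of 18 pancreatic acinar markers 16 were listed, and Ctrb1, Cela2a and Pnlip together stood at 183 CPM in I-KO replicate 1 and 29.6 CPM in lox/lox replicate 2, against 0.1 to 1.38 CPM in the other 5 libraries.

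The I-KO mean was lower for 6 of the 7 and higher for Slc22a4, and the median log2 fold change was -0.42, beside 0.0017 over all genes tested. All 4 I-KO libraries lay below all 3 lox/lox libraries for 5 of the 7 (Slc22a5, Cpt1a, Slc25a20, Cpt2 and Crot), a pattern that 3.28% of all tested genes showed. Those 5 genes had unadjusted p-values under 0.05 in the direction of lower values (limma), as did 2.42% of all tested genes. With adjustment over all 13399 genes none of the 7 stayed under 0.05, as 4 of all genes did (0.0299%, limma). With another variance model, an intensity trend with a robust fit, or with sample weights, 2 of the 7 did, Cpt1a and Slc25a20. Of all genes 9 did with the first setting and 12 with the second. The adjusted p-values of Cpt1a and Slc25a20 there were 0.0466 to 0.0487 by limma, close to the threshold. Without the library labelled I-KO replicate 4, 5 of 7 did not overlap (6.8% of all genes) and 5 of 7 were under the unadjusted p (3.8%). With columns scaled to equal totals 4 of 7 did not overlap, as Crot then overlapped, and 5 of 7 were under the unadjusted p. Shares of all genes were not computed for that scaling. Without both libraries with the most Ctrb1, Cela2a and Pnlip, 6 of 7 did not overlap (8.27% of all genes) and 4 of 7 were under the unadjusted p (1.6%). In whole tissue, fewer cells that express a gene and less RNA per cell cannot be told apart.

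**Figure D1:**
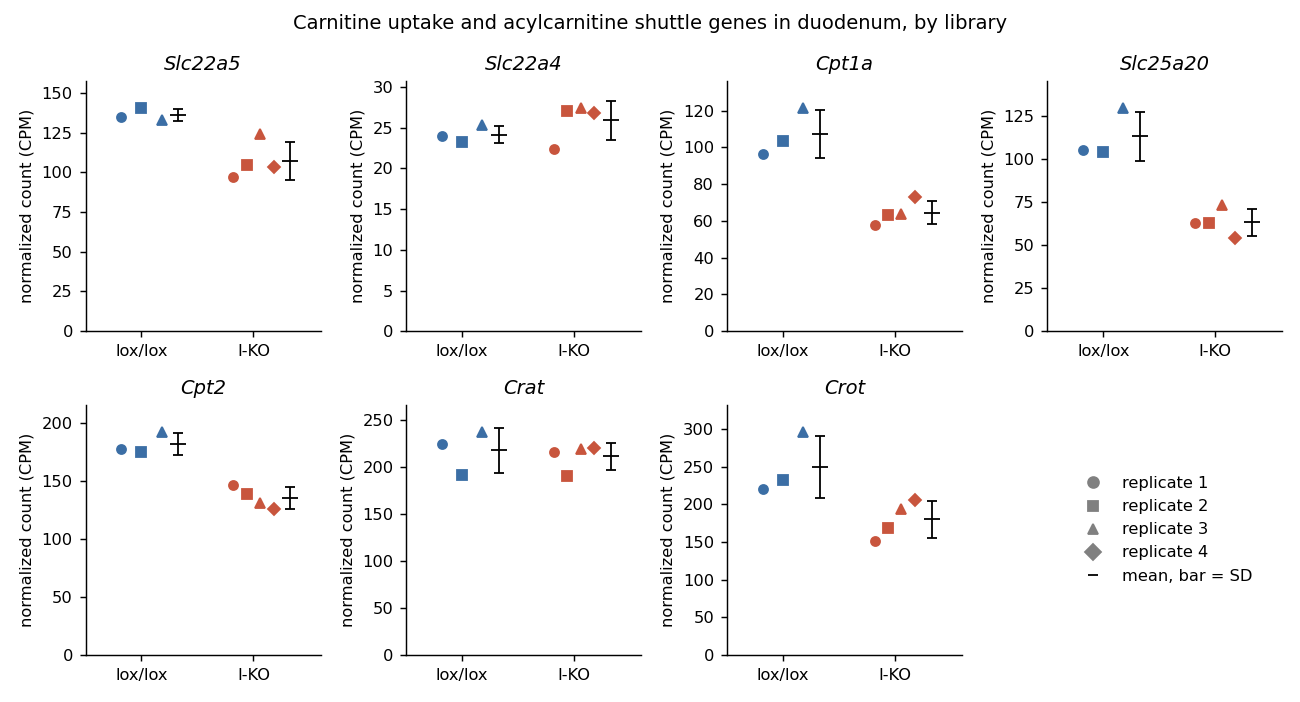
Normalized counts (CPM, linear axes from 0) of the 7 genes in each of the 3 lox/lox libraries (blue) and 4 I-KO libraries (red), with the replicate number as the point shape and the mean and SD in black. The I-KO points lie below all lox/lox points for Slc22a5, Cpt1a, Slc25a20, Cpt2 and Crot, while the ranges of the groups overlap for Slc22a4 and Crat.

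The 3 genes of the long-chain shuttle stood at -0.72 (median log2 fold change), and their promoters are printed here because they are the stretches where binding of a regulator at the gene start would be sought. Each is RefSeq sequence of build GRCm38.p6, 250 bases before to 50 bases after the annotated start, on the strand of the gene. Capitals mark the GC box (letters GGGCGG) and the CCAAT box on either strand, and in Cpt1a also a single AGGTCA, which reads TGACCT in the printed strand.
Cpt1a, chr19:3323051-3323350 (+ strand): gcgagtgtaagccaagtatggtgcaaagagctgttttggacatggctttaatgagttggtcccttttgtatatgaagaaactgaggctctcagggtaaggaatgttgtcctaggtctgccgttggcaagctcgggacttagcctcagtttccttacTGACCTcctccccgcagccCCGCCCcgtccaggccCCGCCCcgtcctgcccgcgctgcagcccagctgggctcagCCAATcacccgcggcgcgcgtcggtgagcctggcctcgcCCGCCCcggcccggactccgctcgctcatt
Slc25a20, chr9:108661886-108662185 (+ strand): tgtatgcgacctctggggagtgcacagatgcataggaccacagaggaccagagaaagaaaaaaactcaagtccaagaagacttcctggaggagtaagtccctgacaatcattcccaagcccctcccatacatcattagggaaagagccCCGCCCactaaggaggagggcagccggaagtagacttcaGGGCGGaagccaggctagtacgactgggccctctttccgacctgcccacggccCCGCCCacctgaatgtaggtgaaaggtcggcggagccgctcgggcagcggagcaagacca
Cpt2, chr4:107923540-107923839 (- strand): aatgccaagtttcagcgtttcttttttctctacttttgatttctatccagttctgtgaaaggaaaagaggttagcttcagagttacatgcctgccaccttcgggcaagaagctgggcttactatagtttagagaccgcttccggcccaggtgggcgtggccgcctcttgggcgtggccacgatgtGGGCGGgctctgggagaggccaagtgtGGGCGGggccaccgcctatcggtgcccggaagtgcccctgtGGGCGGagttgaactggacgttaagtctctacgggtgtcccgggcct
A promoter was matched to 6 of the genes, all but Crat. The full direct repeat, 2 copies of AGGTCA in a row with any 1 base between, was in none of the 6 on either strand. Nor was a looser form with any base as the fourth letter of each copy, and 0.0396% and 0.381% of 32851 mouse promoters of this length hold them. Repeats with mismatches at other letters were not searched. A single copy, which also lies inside the full repeat, was in the Cpt1a promoter alone, 94 bases before the start, and in 16.3% of all promoters. All 6 held a GC box, beside 35.7% of all promoters, 2 held the CCAAT box (37.4%), and the TATA box (letters TATAAA) was in none (13.6%). The 6 windows were 57.3% to 72.7% G or C, above the median of 52.7% over all promoters. The shares over all promoters were not matched for this content. A match of letters is a description and not a binding site, and these windows do not cover introns or distant regions.

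Cpt1a (ENSMUSG00000024900.5, chr19:3322334-3385733, + strand, 19 exons in mm10) encodes the liver-type CPT1, the step of the shuttle that malonyl-CoA inhibits. It stood at 96.4, 103.6 and 121.5 CPM in lox/lox and at 57.7, 63.1, 64.0 and 72.8 CPM in I-KO. The groups did not overlap, with a gap of 23.5 CPM between the lowest control and the highest I-KO library. The I-KO mean of 64.4 ± 6.28 CPM (SD, n = 4) was 60.1% of the lox/lox mean of 107 ± 12.9 CPM (SD, n = 3). The log2 fold change was -0.72 (SE 0.11, 95% confidence interval -0.98 to -0.47), with an adjusted p of 0.134 by limma and rank 11 of 13399 by unadjusted p. The exact two-sided permutation p was 0.0286, the smallest that 3 against 4 libraries can give. Without the library labelled I-KO replicate 4, the highest of its group, the log2 fold change was -0.78.

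Slc25a20 (ENSMUSG00000032602.6, chr9:108662088-108684641, + strand), the carnitine-acylcarnitine carrier, had the lowest ratio of I-KO to lox/lox among the 7. Its values were 105.4, 104.1 and 129.7 CPM in lox/lox and 62.8, 62.9, 73.3 and 54.2 CPM in I-KO. Every I-KO library was at least 30.8 CPM below the lowest control. Means were 113 ± 14.4 CPM (SD, n = 3) and 63.3 ± 7.81 CPM (SD, n = 4), or 56.0% of the control. The log2 fold change was -0.83 (SE 0.12, interval -1.10 to -0.55), with an adjusted p of 0.116 by limma, and the exact permutation p was again 0.0286. With an intensity trend and a robust fit the adjusted p was 0.0466, and that of Cpt1a was 0.0478. Leaving out single libraries gave adjusted p-values by limma of 0.132 to 0.484 for Slc25a20 and 0.172 to 0.632 for Cpt1a, and without both libraries highest in the pancreatic genes they were 0.823 and 0.837. Without the library labelled I-KO replicate 4, the lowest of its group, the log2 fold change of Slc25a20 was -0.76.

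Cpt2 (ENSMUSG00000028607.16, chr4:107903981-107923610, - strand, 5 exons) encodes the acyltransferase of the inner membrane. It was at 177.2, 174.8 and 192.5 CPM in lox/lox and at 146.9, 138.5, 130.7 and 125.4 CPM in I-KO, with no overlap. The mean of 135 ± 9.36 CPM (SD, n = 4) was 74.6% of the 181.5 ± 9.61 CPM in controls (SD, n = 3). The log2 fold change was -0.42 (SE 0.09, interval -0.62 to -0.23, adjusted p = 0.476 by limma), with an exact permutation p of 0.0286. It was -0.39 without the library labelled I-KO replicate 4, the lowest of its group. The 2 CPT genes were also compared within libraries. The ratio of Cpt1a to Cpt2 was 0.544, 0.593 and 0.631 in lox/lox and 0.393, 0.456, 0.489 and 0.581 in I-KO. The library labelled I-KO replicate 4 overlapped the controls, and the log2 difference of -0.30 did not pass (exact two-sided permutation p = 0.114, and 0.114 after Benjamini-Hochberg adjustment over the 3 pairs of genes compared). Without that library the I-KO ratios all lay below the controls and the log2 difference was -0.40. The exact test could not pass with so few libraries.

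The RNA means of the 2 carnitine transporters went in opposite directions, lower in I-KO for Slc22a5 and higher for Slc22a4. Neither passed the adjusted p (limma), and uptake itself was not measured. Slc22a5 and Slc22a4 are related genes that lie 91.5 kb apart on the same strand of chromosome 11. Slc22a5 encodes OCTN2, the high-affinity sodium-dependent carnitine transporter, and Slc22a4 encodes OCTN1, which carries ergothioneine and, weakly, carnitine. Their promoters, shown because the pair differed, both hold GC boxes on either strand (capitals, with a pair of overlapping matches near the end of the Slc22a5 window) and neither holds a single AGGTCA, the CCAAT box or the TATA box.
Slc22a5, chr11:53891654-53891953 (- strand): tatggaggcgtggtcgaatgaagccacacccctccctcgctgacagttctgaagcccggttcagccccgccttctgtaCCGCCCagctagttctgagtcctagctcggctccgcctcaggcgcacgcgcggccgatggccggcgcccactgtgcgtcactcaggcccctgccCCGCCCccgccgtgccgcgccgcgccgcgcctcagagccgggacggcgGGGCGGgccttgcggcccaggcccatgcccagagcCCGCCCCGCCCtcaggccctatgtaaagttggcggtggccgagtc
Slc22a4, chr11:54028055-54028354 (- strand): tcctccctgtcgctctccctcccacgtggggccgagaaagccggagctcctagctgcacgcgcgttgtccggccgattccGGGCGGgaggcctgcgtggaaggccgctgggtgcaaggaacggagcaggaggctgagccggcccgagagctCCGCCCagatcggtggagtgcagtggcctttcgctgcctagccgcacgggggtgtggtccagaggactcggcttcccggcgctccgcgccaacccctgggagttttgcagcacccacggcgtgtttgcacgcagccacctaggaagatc

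Slc22a5 (ENSMUSG00000018900.7, chr11:53864542-53891660, - strand, 10 exons) was at 134.7, 140.5 and 133.1 CPM in lox/lox and at 96.8, 104.8, 124.2 and 103.0 CPM in I-KO. The controls were close together, and I-KO replicate 3 came nearest to them, at 8.9 CPM below the lowest. The mean was 107 ± 11.8 CPM (SD, n = 4) against 136 ± 3.90 CPM (SD, n = 3), or 78.8%. The log2 fold change was -0.35 (SE 0.10, interval -0.57 to -0.12, adjusted p = 0.822 by limma), with an exact permutation p of 0.0571. Slc22a4 (ENSMUSG00000020334.6, chr11:53983123-54028090, - strand, 10 exons) was at 23.9, 23.2 and 25.3 CPM in lox/lox and at 22.4, 27.1, 27.4 and 26.8 CPM in I-KO. I-KO replicate 1 was below all controls and the other 3 were above them. The log2 fold change was 0.093 (SE 0.094, interval -0.12 to 0.31, adjusted p = 0.954 by limma), so a difference in either direction up to those bounds was not excluded.

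The ratio of Slc22a5 to Slc22a4 was 5.63, 6.05 and 5.25 in lox/lox and 4.33, 3.87, 4.53 and 3.85 in I-KO. No I-KO library reached a control, and the means were 5.65 ± 0.401 (SD, n = 3) and 4.14 ± 0.338 (SD, n = 4). The log2 difference was -0.44 with an exact two-sided permutation p of 0.0286, or 0.0429 adjusted over the 3 pairs compared. The pairs were chosen with earlier results of these data known, so these p-values are not independent support.

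Crot, the peroxisomal carnitine octanoyltransferase (ENSMUSG00000003623.4, chr5:8966033-8997324, - strand, 18 exons), was at 219.9, 232.1 and 296.7 CPM in lox/lox and at 151.1, 168.6, 194.0 and 206.1 CPM in I-KO. The groups did not overlap in the deposited values, but they did for Crot with columns scaled to equal totals. Lox/lox replicate 3 stood far above the other controls. The mean of 179.9 ± 24.8 CPM (SD, n = 4) was 72.1% of 249.6 ± 41.3 CPM (SD, n = 3). The log2 fold change was -0.47 (SE 0.14, interval -0.79 to -0.15, adjusted p = 0.830 by limma), with an exact permutation p of 0.0571. Crat, the carnitine acetyltransferase of mitochondria and peroxisomes (ENSMUSG00000026853.15, chr2:30400471-30415813, - strand, 15 exons), was at 224.1, 190.8 and 237.3 CPM in lox/lox and at 215.1, 189.7, 218.5 and 220.3 CPM in I-KO. Lox/lox replicate 2 lay between I-KO replicate 2 and the other I-KO libraries, both other controls lay above all I-KO libraries, and the log2 fold change was -0.040 (SE 0.10, interval -0.27 to 0.19, adjusted p = 0.980 by limma), with a sign that turned to 0.026 without lox/lox replicate 3 and to 0.0097 without I-KO replicate 2. The annotated spans of Crat and Crot overlap other genes (Dolpp1 and Gm16323 for Crat, Gm15610, Gm37153 and Gm27941 for Crot), and whether counting used strand was not given in the sources used here.

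The 2 acyltransferases were also compared within libraries. The ratio of Crat to Crot was 1.02, 0.822 and 0.800 in lox/lox and 1.42, 1.13, 1.13 and 1.07 in I-KO, without overlap. The log2 difference was 0.43 (exact two-sided permutation p = 0.0286, adjusted over the 3 pairs 0.0429, of pairs chosen in the same way). With any 1 library left out the smallest p that the exact test can give is above 0.05, so the pair tests could not pass then, and the difference stayed between 0.34 and 0.54 for Crat to Crot and between -0.49 and -0.39 for Slc22a5 to Slc22a4.

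**Figure D2:**
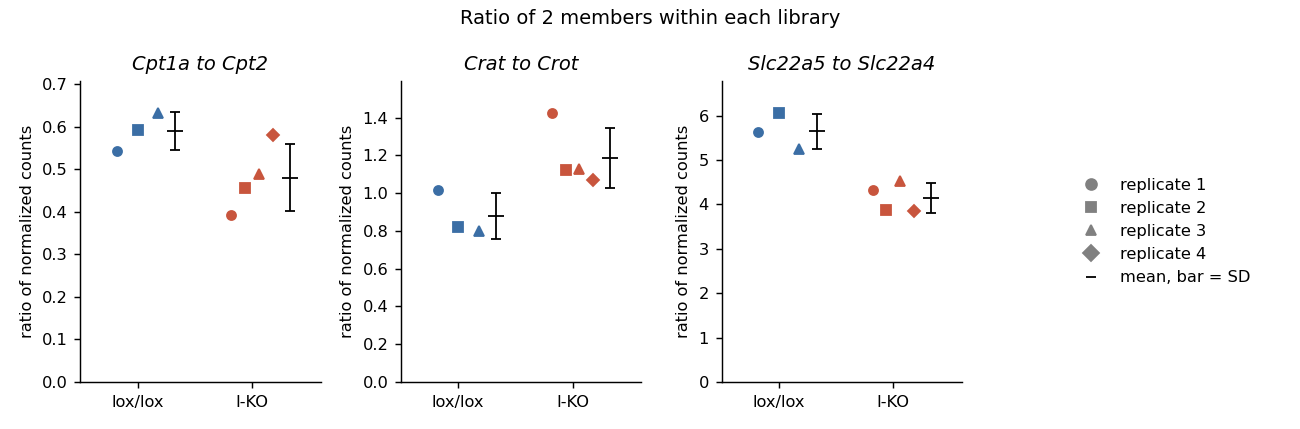
Ratio of normalized counts of 2 genes within each library (linear axes from 0) for 3 lox/lox (blue) and 4 I-KO (red) libraries, with mean and SD in black. The groups are apart for Crat to Crot, higher in I-KO, and for Slc22a5 to Slc22a4, lower in I-KO, while Cpt1a to Cpt2 overlaps at the library labelled I-KO replicate 4 (0.581).

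Divided by the length of the longest protein-coding transcript, the order of the levels in lox/lox was Crot (83.3 ± 13.8 CPM per kb, SD, n = 3), Cpt2 (76.5 ± 4.05), Slc25a20 (63.4 ± 8.09), Crat (51.5 ± 5.67), Slc22a5 (44.5 ± 1.27), Cpt1a (24.8 ± 3.00) and Slc22a4 (10.7 ± 0.478). Crot and Cpt2 overlapped in their libraries, as did Crat and Slc22a5, and the other neighbours in that order did not. In I-KO the means per kb were 60.1 for Crot, 57.1 for Cpt2, 49.9 for Crat, 35.5 for Slc25a20, 35.02 for Slc22a5, 14.9 for Cpt1a and 11.5 for Slc22a4. Slc25a20 stood above Crat in lox/lox and below it in I-KO, where it overlapped Slc22a5. Its place depends on the transcript, because the longest one annotated (2751 bases) has 1 exon and gives 41.1 CPM per kb in lox/lox and 23.0 in I-KO, while the coding one (1783 bases, 9 exons) was chosen after this was seen.

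**Figure D3:**
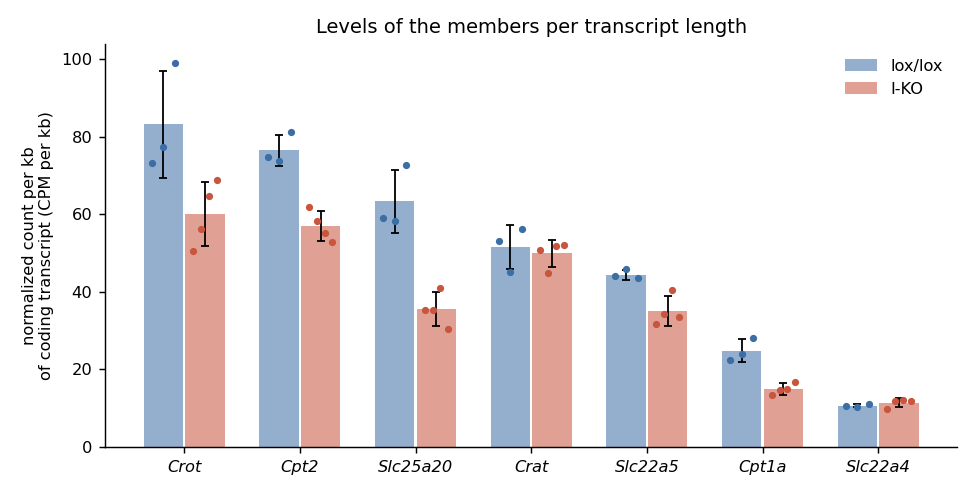
Levels of the 7 genes in CPM per kb of the longest protein-coding transcript (linear axis from 0), as group means (bars), SD (whiskers) and single libraries (points) of 3 lox/lox and 4 I-KO libraries. Crot and Cpt2 are at the top, Cpt1a and Slc22a4 at the bottom, in both groups.

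Libraries within a group did not rank alike for every gene. Lox/lox replicate 3 was the highest of all 7 libraries for 5 of the 7 genes (all but Slc22a5 and Slc22a4), and without it the log2 fold changes were -0.63 for Cpt1a, -0.73 for Slc25a20, -0.38 for Cpt2 and -0.34 for Crot. I-KO replicate 1 was the lowest for 4 (Slc22a5, Slc22a4, Cpt1a and Crot), the library labelled I-KO replicate 4 was the lowest for Slc25a20 and Cpt2, and I-KO replicate 2 for Crat. I-KO replicate 1 was also the library with the most Ctrb1, Cela2a and Pnlip, and without it and lox/lox replicate 2 the log2 fold changes were -0.69 for Cpt1a, -0.88 for Slc25a20, -0.49 for Cpt2, -0.43 for Crot and -0.28 for Slc22a5.

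Among all tested genes, those whose log2 values followed each gene most closely over the 7 libraries are given as a description, with points that share libraries and groups. For Cpt2 they included Hadha (r = 0.988) and Slc18b1 (r = 0.968). For Cpt1a they were Gm11696 (r = 0.982), Cyp4a10 (r = 0.981) and Acads (r = 0.974), and for Slc25a20 Zmym1 (r = 0.977), Zfp472 (r = 0.9701) and Acadm (r = 0.968). Crot was followed by Zfand6 and Clpx (both r = 0.986) and Abcd3 (r = 0.981), and Slc22a5 by Aggf1 (r = 0.984), Cand1 (r = 0.979) and Rnf146 (r = 0.976). For Slc22a4 they were Efr3a (r = 0.982), Erich1 (r = 0.977) and Aox1 (r = 0.975), and for Crat, which hardly differed between groups, Pax8 (r = 0.975), Mfsd7b (r = 0.969) and Plekhs1 (r = 0.954).

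A further list held genes related to carnitine but outside the 7, including the other CPT1 genes and Slc25a29. Of 10 listed, 7 were in the table and 6 were tested, with 5 lower and 1 higher in mean, a median log2 fold change of -0.10 (-0.16 to -0.039 with single libraries left out) and none at an adjusted p of 0.05 (limma). Aldh9a1, an aldehyde dehydrogenase of carnitine synthesis, was the 1 gene of the 6 with an unadjusted p under 0.05 (limma). Lower values at that p were found in 2.42% of all genes. Aldh9a1 was at 303.6, 314.4 and 330.4 CPM in lox/lox and at 254.0, 235.6, 272.1 and 281.5 CPM in I-KO (log2 fold change -0.28, SE 0.09, adjusted p = 0.887 by limma). The groups did not overlap, a pattern of 3.28% of all genes. Without both libraries highest in Ctrb1, Cela2a and Pnlip its unadjusted p was 0.0587 by limma. Bbox1, which makes carnitine in the last step of synthesis, had a log2 fold change of 0.0068 (interval -0.56 to 0.57), or -0.029 when columns were scaled to equal totals. Slc16a9, a carnitine efflux transporter, had -0.15, Slc25a29, a mitochondrial carrier of basic amino acids, -0.18, and Slc22a21, a further transporter of the OCTN family, -0.052. The other CPT1 genes were scarce: Cpt1c had a log2 fold change of -0.049 at 1.28 to 2.54 CPM, and Cpt1b, the muscle form, stayed below the filter at 0.17 to 1.04 CPM.

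Genes that set the supply of substrate to CPT1 were next. Malonyl-CoA is made by acetyl-CoA carboxylases and removed by Mlycd. Acaca had a log2 fold change of 0.019 (-0.017 with equal column totals), Acacb -0.17 and Mlycd -0.14, and none of the 3 had an unadjusted p under 0.05. With single libraries left out Acacb ranged from -0.31 to -0.034 and Mlycd from -0.21 to -0.074, with an unadjusted p of 0.0482 by limma for Mlycd without I-KO replicate 1. Long-chain acyl-CoA synthetases activate fatty acids before the shuttle, and Dbi encodes a protein that binds the products. Acsl5, at 2504 to 3021 CPM over all libraries, had 0.0054 (-0.032 with equal column totals), Acsl1 0.16, Acsl3 0.038, Acsl4 -0.066, Acsl6 0.069 and Dbi -0.19. None of these 6 had an unadjusted p under 0.05, and their median was 0.022. With single libraries left out Acsl1 ranged from 0.099 to 0.25, with an unadjusted p of 0.0230 by limma without I-KO replicate 1, and Dbi from -0.28 to -0.019.

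**Figure D4:**
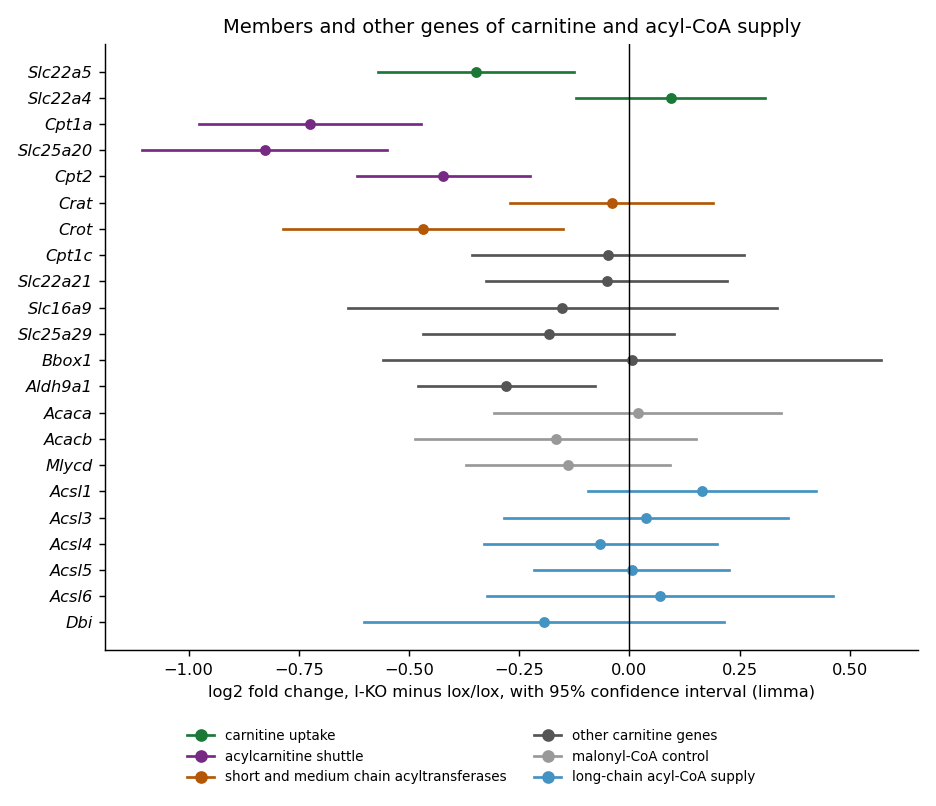
Log2 fold change (I-KO minus lox/lox) with its 95% confidence interval from limma for the 7 genes (green, purple, orange) and for other carnitine genes, malonyl-CoA control and acyl-CoA supply (greys, blue). The intervals of Slc22a5, Cpt1a, Slc25a20, Cpt2, Crot and Aldh9a1 lie below 0 and all others shown span 0.

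Beyond the shuttle, acyl-CoA enters beta-oxidation. Of 12 mitochondrial beta-oxidation genes 10 were lower in mean, and 6 had unadjusted p-values under 0.05, all in that direction (2.42% of all genes), while none passed the adjusted p. Their median was -0.24. The values named here are log2 fold changes. Hadha and Hadhb, the subunits of the trifunctional protein for long chains, had -0.43 and -0.38. Acadvl, the very-long-chain acyl-CoA dehydrogenase, had -0.42 (SE 0.08, adjusted p = 0.399 by limma), with 277.8, 268.9 and 271.3 CPM in lox/lox against 215.1, 199.2, 212.2 and 186.7 CPM in I-KO. Acads (-0.29), Etfb (-0.25) and Etfdh (-0.24) were the other 3. Etfdh was at -0.14 without lox/lox replicate 3, and Etfb at -0.20 without lox/lox replicate 1, both then with unadjusted p-values above 0.05 (0.177 and 0.114 by limma). Of 10 peroxisomal beta-oxidation genes 9 were tested, and 7 were lower in mean. In 3 the unadjusted p was under 0.05 by limma and the groups did not overlap. Over all genes 2.42% were lower at that p, and 3.28% had all I-KO below all lox/lox libraries. The 3 genes were the thiolase Acaa1b (-0.99), the acyl-CoA importer Abcd3 (-0.33) and the thioesterase Acot8 (-0.25), and the median of the 9 was -0.13. With single libraries left out Acaa1b ranged from -1.18 to -0.69, and the unadjusted p of Acot8 reached 0.0547 by limma. Acaa1b was at 83.3 CPM in lox/lox replicate 3, against 41.5 and 47.7 CPM in the other controls. General mitochondrial content was followed by 9 genes, and these (among them Cs, Vdac1 and Sdha) lay between -0.039 and 0.086 with a median of 0.024, and none had an unadjusted p under 0.05. Of the receptors, Pparg was at 0.36 on the log2 scale (adjusted p = 0.954 by limma) with all I-KO above all lox/lox libraries (0.21 and an unadjusted p of 0.0585 by limma without lox/lox replicate 3), beside 2.91% of all genes, and Ppard and Rxra had 0.031 and 0.027 (-0.0059 and -0.0102 with equal column totals).

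**Figure D5:**
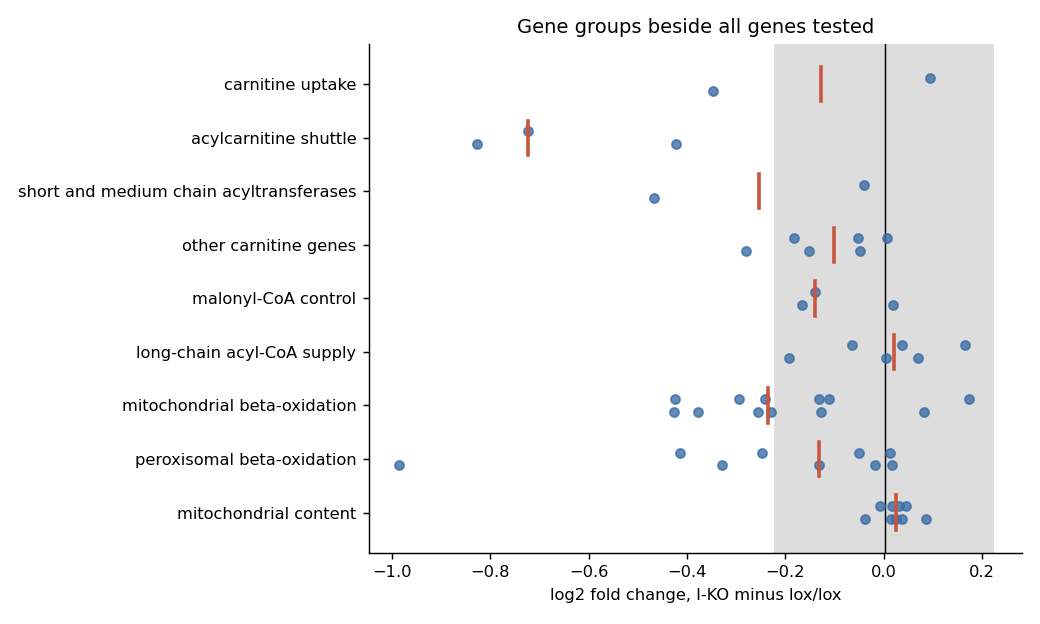
Log2 fold change (I-KO minus lox/lox) of each tested gene (blue points) by gene group, with the group median in red. The grey band spans the 5th to 95th percentile of all 13399 tested genes (-0.22 to 0.22), the black line is their median, and the 3 shuttle genes lie left of the band, at -0.83, -0.72 and -0.42, while all genes of mitochondrial content lie inside it.

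Summed levels of other cell types overlapped between the groups. Smooth muscle markers (7 of 7 listed) summed to 1641 to 1917 CPM in lox/lox and 1652 to 2161 CPM in I-KO, leukocyte markers (7 of 7) to 283 to 414 and 311 to 430 CPM, goblet markers (6 of 6) to 7898 to 9001 and 7593 to 9114 CPM. Paneth markers (4 of 5) spanned 1622 to 2135 and 1064 to 2797 CPM, enteroendocrine markers (6 of 6) 323 to 334 and 261 to 391 CPM, and striated muscle markers (2 of 5) 11.1 to 19.6 and 13.1 to 70.6 CPM. Adipocyte markers (5 of 6) summed to 115 to 127 and 104 to 141 CPM, of which Cidec made up 94.9 to 139.4 CPM over all libraries, while Adipoq was at 0.21 to 2.1 CPM. Hepatocyte markers (3 of 5), whose tissue is rich in several shuttle genes, summed to 1.58 to 4.42 CPM in lox/lox and 1.75 to 3.88 CPM in I-KO.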

How the data were processed

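RNA of whole duodenum was extracted with TRIzol and sequenced as stranded mRNA libraries with single reads of 100 bases, per the labels. The authors deposited 1 table of signal values, gene counts scaled to an adjusted library size (CPM) with 2 decimals, whose columns sum to between 969589 and 1098620. The submitters' processing notes name mm10, FastQC 0.11.2, TopHat2 2.0.13, Picard 1.80, HTSeq 0.6.1 and edgeR, without roles. Groups and replicate numbers came from the labels. Low values were whole reads within rounding in 100% of cases, which gave the read totals, but between 79.2% and 100% within 0.1 of the step of 1 read, since rounding to 2 decimals is wider than that in most libraries, so no count test was run. No 2 libraries of a group agreed within sampling noise. Intervals cover the spread between libraries.

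A line without a gene was dropped, and genes above 1 CPM in at least 3 libraries were tested on log2(value + 1), with genotype as the only term and all 7 libraries, in limma 3.58.1 (R 4.3.3), with Benjamini-Hochberg adjustment over all genes and a threshold of 0.05. Fold changes on that scale understate those of low genes. Single values were also compared with exact two-sided permutation tests over all 35 splits, ratios as differences of log2(value + 1) (Python 3.11.15, scipy 1.17.1). No p was adjusted over the 7 genes alone, although the plan had it, because the genes, lists and pairs were chosen with earlier results of these data known. Members were found by symbol. The text names these genes, all genes of the carnitine, malonyl-CoA, acyl-CoA supply and receptor lists, genes of other lists with an unadjusted p under 0.05, and for each member the 3 genes with the highest Pearson r, of which 1 is not reported here. Ppard and Rxra follow the same rule, and examples of mitochondrial content and cell markers were named after their values were seen. Positions are from GENCODE for mm10, promoters from RefSeq for GRCm38.p6. The GC, CCAAT and TATA boxes were added after the data were seen. The limma script was tested on simulated data. Alternatives were other scalings, no filter, a pseudocount of 0.5, other variance models, sample weights, a replicate block and leaving out libraries.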

Additional observations from a re-analysis of the deposited data

Results flagged for a closer look

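Of 38 values searched for a single I-KO library far from the other 3, 4 stood out, where about 1 in 20 would by chance (1.9 expected). Slc22a4 was at 22.4 CPM in I-KO replicate 1 and at 26.8 to 27.4 CPM in the others, a gap of 0.864 of the whole range. Crat was at 189.7 CPM in I-KO replicate 2 and at 215.1 to 220.3 CPM in the others, a gap of 0.830. Acsl6 was at 2.98 CPM in the library labelled I-KO replicate 4 and at 1.38 to 1.53 CPM in the others, a gap of 0.906. The ratio of Crat to Crot was 1.42 in I-KO replicate 1 and 1.07 to 1.13 in the others, a gap of 0.838. The lox/lox group, with 3 libraries, was too small for this search.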

How the results depend on the processing

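Cpt1a, Slc25a20, Cpt2, Crot and Slc22a5 kept a negative log2 fold change, and Slc22a4 a positive one, under all 16 alternatives. Genes called at an adjusted p of 0.05 over all genes numbered 4, and 9 with an intensity trend and robust fit, 12 with sample weights and 3 to 5 with single libraries left out. The members called were 0, and 2 under the first pair of settings: Cpt1a (log2 fold change -0.72 and -0.70) and Slc25a20 (-0.83 and -0.77). The cause was not tested. With single libraries left out, the ranges were 0 to 0 members called, -0.80 to -0.63 for Cpt1a, -0.90 to -0.73 for Slc25a20, -0.46 to -0.38 for Cpt2, -0.55 to -0.34 for Crot, -0.42 to -0.30 for Slc22a5, 0.065 to 0.16 for Slc22a4 and -0.13 to 0.026 for Crat, whose sign turned without lox/lox replicate 3 and without I-KO replicate 2. The log2 difference of the ratio of Crat to Crot ranged from 0.34 to 0.54, Slc22a5 to Slc22a4 from -0.49 to -0.39 and Cpt1a to Cpt2 from -0.40 to -0.21, where both former tests could not pass with 6 libraries. The median of mitochondrial beta-oxidation was -0.14 with sample weights and -0.27 to -0.17 with libraries left out, and that of peroxisomal beta-oxidation -0.25 without both libraries highest in Ctrb1, Cela2a and Pnlip, an alternative chosen after seeing the data because the planned acinar sum was mostly Zg16. Same-numbered libraries correlated at -0.014, 0.184 and -0.0092 in their deviations from the group means. Such correlations cannot tell whether numbers mark littermates or batches, and the main fit did not pair libraries by number. With the replicate block 3 genes and 0 members were called, I-KO replicate 4 having no partner there, and log2 fold changes were -0.78 for Cpt1a and -0.76 for Slc25a20. Signs near 0 turned for further genes. These were Cpt1c (block 0.069, libraries left out -0.14 to 0.069), Slc22a21 (0.060 without both libraries of the highest acinar sum, -0.11 to 0.028), Slc16a9 (0.19 there, -0.38 to 0.062), Bbox1 (-0.029 with column totals, -0.037 with weights, -0.17 with the block, -0.12 without the Ctrb1, Cela2a and Pnlip libraries, -0.17 to 0.21), Acaca (-0.017 with totals, -0.055 with the block, -0.052 without the acinar sum libraries, -0.099 to 0.10), Acsl3 (-0.11 without the Ctrb1, Cela2a and Pnlip libraries, -0.045 to 0.14), Acsl4 (0.014 there, -0.19 to 0.026), Acsl5 (-0.032 with totals, -0.0017 with weights, -0.089 without the Ctrb1, Cela2a and Pnlip libraries, -0.046 to 0.062), Acsl6 (block -0.10, -0.10 to 0.14), Ppard (-0.0059 with totals) and Rxra (-0.0102 with totals). Column totals moved the median of all genes from 0.0017 to -0.032. Cpt1b, at 0.17 to 1.04 CPM, was too low to be tested.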
